A study of Mus musculus with 5 samples.

Results

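The genes of cardiolipin and of the phospholipids made beside it in mitochondria were examined in hearts that had lost Immt, the gene of Mic60 (mitofilin), a scaffold subunit of the MICOS complex that shapes cristae. The 10 genes were taken by name from a deposited table of 15116 genes, all 10 were listed there, and all had a mean of at least 5 CPM in both groups, where CPM is the count of reads after scaling for the size of each library. They are Tamm41, Pgs1, Ptpmt1 and Crls1 (synthesis of cardiolipin), Tafazzin and Lclat1 (remodelling of its acyl chains), Pisd (phosphatidylethanolamine), and Prelid1, Prelid3b and Triap1 (lipid transfer between the mitochondrial membranes). RNA was sequenced in bulk from hearts of 2 groups. The knockout group had 2 samples from Immtfl/fl-Myh6-MCM mice, in which the Myh6 promoter drives a tamoxifen-dependent MerCreMer recombinase in cardiomyocytes, so other cells of the heart keep Immt. The control group had 3 samples from Immt+/+-Myh6-Cre mice, whose Immt is intact and whose recombinase is a different Myh6 transgene, so that Immt loss and the change of transgene cannot be told apart. According to the study's methods the Myh6-Cre line is X-linked and was studied in males only, whereas both sexes served for Myh6-MCM. The sex of these samples is not given here, so sex could also differ between the groups. Mice of both groups received tamoxifen according to the labels of all 5 samples, in 3 injections from 6 weeks of age. Knockout hearts were collected 10 weeks afterwards, while the control labels state no time and the design text calls these mice only a control of equal age. Each sample carries its own title, and the study's methods name the single mouse as the unit of replication unless stated otherwise, while the labels give no mouse for a sample.

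Cardiolipin is the signature phospholipid of the inner mitochondrial membrane, where it holds respiratory complexes together and is enriched in the curved parts of cristae. Its synthesis begins with phosphatidic acid, which Prelid1 and its partner Triap1 ferry from the outer to the inner membrane. Tamm41 activates it to CDP-diacylglycerol, Pgs1 makes phosphatidylglycerophosphate, Ptpmt1 removes the phosphate, and Crls1 joins the resulting phosphatidylglycerol to another CDP-diacylglycerol. In the heart new cardiolipin is remodelled towards linoleic acid chains by tafazzin, the transacylase that is defective in human Barth syndrome, while Lclat1 (also called ALCAT1) is an acyltransferase that reacylates lysocardiolipin and other lysophospholipids. Pisd decarboxylates phosphatidylserine, delivered by Prelid3b with Triap1, to phosphatidylethanolamine.

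Levels are normalized CPM, in which each library is scaled to a common effective size. The table gives a mean and a standard deviation (SD) per group, and the values of single libraries were worked back from these wherever only 1 combination of whole reads, or of reads counted in steps of 0.5, gave both to 6 digits. This succeeded for 9 of the 10 genes, the exception being Pisd, and for 12273 of 15116 genes (81.2%). The libraries carry numbers here that only name them, since they could not be matched to single sample titles. Their effective sizes were 15.2 and 14.1 M reads for knockout libraries 1 and 2, against 13.6, 13.6 and 12.1 M reads for control libraries 1, 2 and 3. Immt itself fell to 15.98 and 19.83 CPM in the knockout libraries, against a control mean of 254 ± 7.76 CPM (SD, n = 3), a log2 fold change of −3.79 (SE 0.091, adjusted p = 1.2e-07, limma). According to the study's methods the loxP sites flank a single internal exon, whereas these libraries read the 3′ ends of transcripts, so the tags lie outside the deleted part and this is a check of transcript level only. Control library 3 was the farthest from the other controls in 46.7% of 7191 genes that averaged 5 CPM or more and had values per library, against 26.7% for each of the other two, and results are therefore also given without it. Of 10 cardiomyocyte markers, 5 fell (Tnnt2, Tnni3, Ryr2, Actc1 and Pln) and the rest did not pass the test, where 12.9% of all genes were called lower, with summed levels of 29440 CPM in the knockout and 34641 CPM in the control. Of the 8 leukocyte markers that were listed, 3 fell (C1qa, C1qb and Lyz2), with sums of 178 and 162 CPM in the knockout against 220, 223 and 261 CPM in the control. Of 9 fibroblast, 8 endothelial and 7 mural markers 1, 1 and 1 passed the test (Dcn lower, Cldn5 higher, Cspg4 lower). No Schwann, skeletal muscle, erythroid or mesothelial marker (3, 6, 5 and 2 in the table) passed the test, the erythroid sum being 3378 CPM in the knockout and 5948 CPM in the control. The erythroid markers varied widely between controls, with Hbb-bs at 2012 ± 1499 CPM (SD, n = 3). Alas2 measured 8.62 and 9.24 CPM in the knockout libraries, against 32.3, 3.82 and 17.2 CPM in the control libraries. The 6 adipocyte markers were not in the table. Genes encoded in mitochondrial DNA took 32.2% of the summed level in the knockout and 36.7% in the control. In bulk RNA fewer cells of a type and less RNA per cell cannot be told apart, and the part of these markers in the results below was not tested.

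The promoters of the 3 genes that passed the test are shown because these genes moved in opposite directions. Each is the stretch of 250 bases before the annotated start (RefSeq, GRCm38.p6), written 5′ to 3′ on the strand of the gene. Capitals mark matches to an E-box (CACGTG) or to an NRF1-type motif (GCGC, any pair of bases, GCGC again). Positions are counted from the start site, with negative numbers before it.
Lclat1 (chr17:73107735-73107984, plus strand): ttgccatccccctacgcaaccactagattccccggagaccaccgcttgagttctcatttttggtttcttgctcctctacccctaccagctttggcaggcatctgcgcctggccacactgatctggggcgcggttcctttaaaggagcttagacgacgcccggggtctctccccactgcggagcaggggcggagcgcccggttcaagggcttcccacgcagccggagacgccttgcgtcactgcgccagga
Crls1 (chr2:132846416-132846665, plus strand): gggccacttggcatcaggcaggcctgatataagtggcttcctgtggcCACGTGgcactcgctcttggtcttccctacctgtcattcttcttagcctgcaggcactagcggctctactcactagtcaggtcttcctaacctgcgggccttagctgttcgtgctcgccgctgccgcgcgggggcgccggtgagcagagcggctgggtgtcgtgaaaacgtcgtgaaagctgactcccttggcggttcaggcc
Prelid3b (chr2:174472942-174473191, minus strand): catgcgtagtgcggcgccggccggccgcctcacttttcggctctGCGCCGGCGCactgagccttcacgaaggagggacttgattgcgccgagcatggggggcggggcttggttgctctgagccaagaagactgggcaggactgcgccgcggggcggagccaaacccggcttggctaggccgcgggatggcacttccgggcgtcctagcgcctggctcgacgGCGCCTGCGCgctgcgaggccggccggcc
RefSeq gives 2 promoters for Crls1, of which the first is shown and the second held no match to any motif searched. The Crls1 stretch held an E-box at −203 and the Prelid3b stretch held NRF1-type matches at −206 and −29, while the Lclat1 stretch held no match to any motif searched. RefSeq gave 11 promoters (250 bases before to 50 after the start) for 9 of the 10 genes, tafazzin under its older symbol Taz. On both strands the NRF1-type motif was found in 3 of the 11 promoters (Pgs1 at −58, Prelid3b and Triap1 at −39), and in 6.22% of 32817 promoters of the same length. The E-box was found in 2 of the 11 promoters (Crls1, and Prelid1 at −82), and in 7.15% of all promoters. The ERR-type motif TCAAGGTCA and the CARE-type motif TGATGNAA were found in 0 of the 11 promoters, against 0.424% and 3.97% of all promoters. The 11 promoters had a median GC content of 63%, against 52.7% over all promoters. Counts of matches were not adjusted for GC content. Of the 5 genes with an NRF1-type or E-box match, Prelid3b and Crls1 passed the test for expression, and Pgs1, Triap1 and Prelid1 did not.

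Of the 10 genes, Crls1 and Prelid3b rose in knockout hearts, Lclat1 fell, and the other 7 did not pass the test. These 3 calls are 30% of the genes, read against 26.2% of all 15116 genes called in this comparison (13.3% higher and 12.9% lower, limma on log2(CPM + 0.5) at an adjusted p below 0.05) and 31.6% of those averaging 5 CPM or more. The share of genes called was therefore near the background. The median log2 fold change of the 10 genes was 0.13, against −0.025 over all genes. A positive log2 fold change was measured for 9 of the 10 genes, against 47.1% of all genes and 50.9% of those averaging 5 CPM or more. For Tamm41, Tafazzin and Triap1, however, the sign turned when a single library was left out. Scaling to library totals in place of effective sizes moved log2 fold changes up by 0.13. Under that scaling Ptpmt1 and Prelid1 were called too, which gave 4 genes higher and 1 lower, with 29.5% of all genes called (20.2% higher and 9.37% lower).

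**Figure D1:**
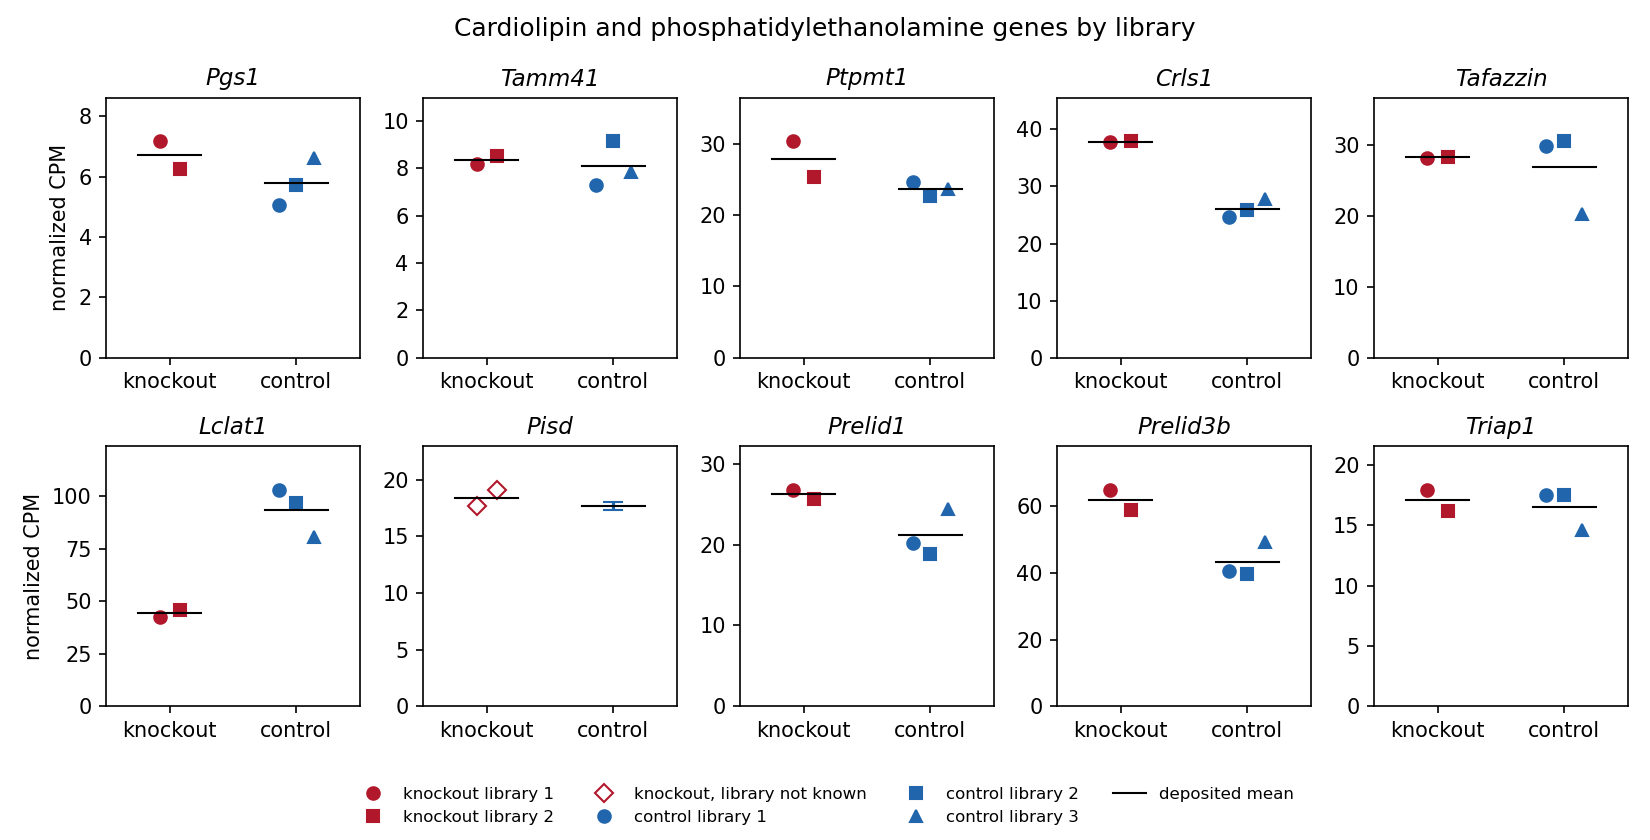
Normalized CPM (vertical axes, from 0) of the 10 genes in 2 knockout libraries (left, red) and 3 control libraries (right, blue), with the deposited group mean as a black line. For Pisd the knockout values follow from the mean and SD without a library name and the control is shown as the range its SD allows. Lclat1 sits at 42.4 and 45.8 CPM in the knockout, below all controls (80.3 to 103 CPM), whereas Crls1 sits above all controls.

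Crls1 (ENSMUSG00000027357), cardiolipin synthase and the last enzyme of the pathway, rose in the knockout. Its level was 37.7 and 37.9 CPM in the knockout libraries, against 24.6, 25.8 and 27.7 CPM in the control libraries. The groups did not overlap, and the knockout libraries differed from each other by less than any pair of controls. The means were 37.8 ± 0.134 CPM (SD, n = 2) in the knockout and 26.1 ± 1.56 CPM (SD, n = 3) in the control, a log2 fold change of 0.53 (SE 0.088, 95% interval 0.33 to 0.73, adjusted p = 0.0028, limma). These levels rest on 573 and 533 reads in the knockout and on 336, 352 and 336 reads in the control. With any 1 library left out of the fit on values per library, the log2 fold change lay between 0.49 and 0.57 and the adjusted p between 0.00027 and 0.045. Lrrn4 overlaps the Crls1 locus in the annotation and is not in the table.

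The enzymes that act before Crls1 did not pass the test. Ptpmt1 (ENSMUSG00000063235), the phosphatase of phosphatidylglycerophosphate, measured 30.3 and 25.3 CPM in the knockout, against 24.6, 22.7 and 23.7 CPM in the control. The groups did not overlap, but knockout library 2 lay only just above control library 1, and the log2 fold change was 0.23 (95% interval −0.010 to 0.47, adjusted p = 0.15, limma). Scaled to library totals it was 0.35 (adjusted p = 0.033, limma). No other alternative called Ptpmt1, and its log2 fold change was 0.094 without knockout library 1 and 0.35 without knockout library 2. Pgs1 (ENSMUSG00000017715), the phosphatidylglycerophosphate synthase, measured 7.17 and 6.25 CPM in the knockout, against 5.06, 5.73 and 6.60 CPM in the control. Here the lower knockout library lay below the highest control, and the log2 fold change of 0.20 had an interval of −0.15 to 0.55 (adjusted p = 0.39, limma). Tamm41 (ENSMUSG00000030316), the CDP-diacylglycerol synthase of the matrix side, measured 8.19 and 8.53 CPM in the knockout, inside the control values of 7.30, 9.14 and 7.84 CPM. Its log2 fold change was 0.044 (95% interval −0.26 to 0.35, adjusted p = 0.85, limma). Pgs1 and Tamm41 had the fewest reads of the 9 genes worked back, from 69 to 124.5 per library. Summed over the 4 synthesis genes, the called Crls1 included, the level was 83.4 and 78.0 CPM in the knockout libraries. The same sum was 61.6, 63.4 and 65.9 CPM in the control libraries. Over all 10 genes the group means summed to 277 CPM in the knockout and 283 CPM in the control.

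Lclat1 (ENSMUSG00000054469), the lysocardiolipin acyltransferase, fell in the knockout. It measured 42.4 and 45.8 CPM in the knockout libraries, against 103, 96.8 and 80.3 CPM in the control libraries. Both knockout libraries lay below every control library, control library 3 being the lowest of the controls. The means were 44.1 ± 2.41 CPM (SD, n = 2) in the knockout and 93.4 ± 11.7 CPM (SD, n = 3) in the control, and the fold on the log2(CPM + 0.5) scale was 0.476 (95% interval 0.402 to 0.563), a log2 fold change of −1.07 (SE 0.11, adjusted p = 0.00021, limma). With 645 reads in each knockout library, against 1404, 1319 and 973 in the controls, it was among the better measured of the 10 genes. It was called with any 1 library left out of the fit on values per library, with log2 fold changes between −1.17 and −0.99. RefSeq places 2 predicted genes (Gm9311 and Gm25406) over the Lclat1 locus, neither of which is in the table, and whether the counting used strand is not given in the sources used here.

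Tafazzin (ENSMUSG00000009995) did not pass the test. It measured 28.2 and 28.4 CPM in the knockout, against 29.9, 30.5 and 20.2 CPM in the control. The knockout libraries lay between control library 3 and the other two controls, so the groups overlapped. The log2 fold change was 0.072 (95% interval −0.29 to 0.43, adjusted p = 0.78, limma) and turned to −0.094 without control library 3. Dnase1l1, which overlaps the tafazzin gene in the annotation, was at 7.71 CPM in the knockout and 7.33 CPM in the control.

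Reads of 2 genes within a library give a ratio that no scaling between libraries can change, and the pairs below were chosen after their values were seen. Crls1 had 0.888 and 0.826 reads for each Lclat1 read in the knockout, against 0.239, 0.267 and 0.345 in the control. Tafazzin had 0.665 and 0.619 reads for each Lclat1 read in the knockout, against 0.291, 0.315 and 0.252 in the control. Both ratios were higher in each knockout library than in every control. They restate the levels of these genes given above and are no separate result. The ratio of Crls1 to Prelid3b, 2 genes that both rose, overlapped, with 0.58 and 0.644 in the knockout, against 0.605, 0.648 and 0.564 in the control. The ratio of Crls1 to Tafazzin was 1.34 in both knockout libraries, against 0.824, 0.846 and 1.37 in the control, and here control library 3 lay with the knockout.

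**Figure D2:**
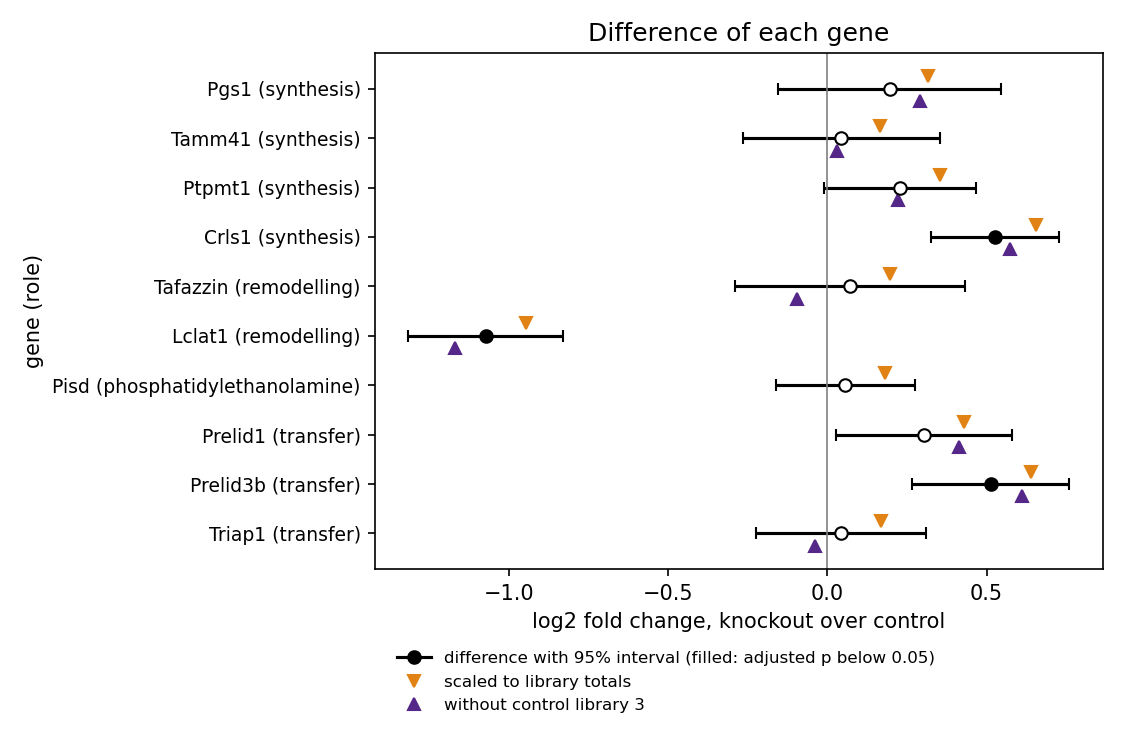
Log2 fold change (knockout over control, horizontal axis) of each of the 10 genes by role, as circles with 95% intervals, filled where the adjusted p was below 0.05, together with the values scaled to library totals (triangles pointing down) and without control library 3 (triangles pointing up, none for Pisd). Lclat1 stands alone on the negative side at −1.07, Crls1 (0.53), Prelid3b (0.51) and Prelid1 (0.30, not called) have intervals above 0, and Tafazzin and Triap1 turn negative without control library 3.

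Of the transfer proteins, Prelid3b rose. Prelid3b (ENSMUSG00000016257), the carrier of phosphatidylserine, measured 65.0 and 58.8 CPM in the knockout, against 40.7, 39.9 and 49.2 CPM in the control. The groups did not overlap, with control library 3 the highest of the controls. The means were 61.9 ± 4.37 CPM (SD, n = 2) in the knockout and 43.2 ± 5.16 CPM (SD, n = 3) in the control, a log2 fold change of 0.51 (SE 0.11, 95% interval 0.26 to 0.76, adjusted p = 0.0089, limma). The call was lost without knockout library 1, where the log2 fold change was 0.45 (adjusted p = 0.10, limma).

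Prelid1 (ENSMUSG00000021486), the carrier of phosphatidic acid, did not pass the test. It measured 26.8 and 25.7 CPM in the knockout, against 20.2, 18.9 and 24.4 CPM in the control. Both knockout libraries were above every control, by least over control library 3, and the log2 fold change was 0.30 (95% interval 0.026 to 0.58, adjusted p = 0.10, limma). It was called without control library 3 (0.41, adjusted p = 0.0052, limma) and under scaling to library totals (0.43, adjusted p = 0.028, limma). No other alternative called it. Without control library 1 or 2 the log2 fold change was 0.28 and 0.23 (adjusted p = 0.22 and 0.25, limma). Without knockout library 1 or 2 it was 0.28 and 0.34. Mxd3 overlaps the Prelid1 locus in the annotation and is not in the table. Triap1 (ENSMUSG00000029535), the small partner of both carriers, measured 17.96 and 16.2 CPM in the knockout, against 17.5, 17.5 and 14.6 CPM in the control, so the groups overlapped. Its log2 fold change was 0.043 (95% interval −0.22 to 0.31, adjusted p = 0.82, limma). Whether the difference of Triap1 departs from that of Prelid3b was not tested. Their paralog Prelid2 measured 4.83 and 6.54 CPM in the knockout, against 8.98, 7.89 and 6.93 CPM in the control, and did not pass the test (log2 fold change −0.45, adjusted p = 0.085, limma), although it was called without control library 3 (−0.54, adjusted p = 0.025, limma).

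Pisd (ENSMUSG00000023452), the phosphatidylserine decarboxylase of the inner membrane, did not pass the test. Its knockout libraries measured 17.7 and 19.1 CPM, in an order that is not known, against control libraries whose SD places them between 17.3 and 18.01 CPM. The means were 18.4 ± 1.01 CPM (SD, n = 2) in the knockout and 17.7 ± 0.301 CPM (SD, n = 3) in the control, and the groups overlapped. The log2 fold change was 0.057 (95% interval −0.16 to 0.27, adjusted p = 0.71, limma).

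Across the 10 genes the groups did not overlap for 5, with the knockout above for Crls1, Prelid3b, Prelid1 and Ptpmt1 and below for Lclat1. Among the 12273 genes with values per library the groups did not overlap in 51.0% (22.6% with the knockout above and 28.4% below). Of the 7191 of these that averaged 5 CPM or more, 56.5% did not overlap, so that 5 of 10 is near the background. The median coefficient of variation between replicates over the 10 genes was 5.47% in the knockout and 11.8% in the control. Over all genes averaging 5 CPM or more the medians were 5.28% in the knockout and 8.30% in the control. Control library 3 was the farthest from the other controls in 7 of the 9 genes with values per library, as the highest control in 4 of the 9 genes and the lowest in 3. Without it Crls1, Prelid3b and Prelid1 were called higher and Lclat1 lower, with 30.9% of 12273 genes called in that fit (13.8% higher and 17.1% lower).

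Other phospholipid genes were read from 6 lists of the steps around cardiolipin, of which 80 of 84 genes were in the table. The lists were chosen with earlier results of these data known, so their shares beside the background are a description and no test. In the knockout 15 rose, 9 fell and 56 did not pass the test, with a median log2 fold change of 0.046, against −0.025 over all genes. Of all genes 26.2% were called (13.3% higher and 12.9% lower), and of those averaging 5 CPM or more 31.6%. Under scaling to library totals 26 were called higher and 6 lower, with 29.5% of all genes called (20.2% higher and 9.37% lower).

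Of the 17 genes that supply phosphatidic acid and CDP-diacylglycerol, 5 rose and 1 fell (median −0.048), with 13.3% of all genes called higher and 12.9% lower. Cds2, a CDP-diacylglycerol synthase of the endoplasmic reticulum, measured 41.6 and 41.8 CPM in the knockout, against 24.4, 25.2 and 27.8 CPM in the control (log2 fold change 0.68, adjusted p = 0.00085, limma). It rose, whereas the mitochondrial Tamm41, with the same reaction, did not pass the test, and the difference between them was not tested. Gpat3, a glycerol-3-phosphate acyltransferase of the endoplasmic reticulum, measured 22.3 and 19.4 CPM in the knockout, against 11.9, 11.01 and 10.6 CPM in the control (0.88, adjusted p = 0.00070, limma). Agpat2, which acylates lysophosphatidic acid, had a log2 fold change of 0.36 (adjusted p = 0.022, limma). The remaining calls that rose, named after their values were seen, were Gpam and Agk. Gpam is the acyltransferase of the outer mitochondrial membrane (0.41, adjusted p = 0.023, limma) and Agk the mitochondrial acylglycerol kinase (0.52, adjusted p = 0.035, limma). Whether the calls of Gpam and Agk hold under the alternatives was not examined. Lpin1, a phosphatidate phosphatase, fell, at 81.4 CPM in both knockout libraries, against 106, 121 and 170 CPM in the control (log2 fold change −0.70, adjusted p = 0.018, limma). The related Agpat3, Agpat4 and Agpat5 did not pass the test (−0.056, −0.25 and 0.31), although Agpat5 was called without control library 3 (adjusted p = 0.024, limma) and under library totals (adjusted p = 0.025, limma). The calls of Agpat2 and Lpin1 were lost without knockout library 1 (adjusted p = 0.21 and 0.12, limma) and without knockout library 2 (0.055 and 0.12), and that of Agpat2 also without control library 1 (0.076). Both calls were lost with no trend in the variance (0.075 for Agpat2 and 0.068 for Lpin1), and that of Lpin1 also with the larger of raw and moderated variance (adjusted p = 0.10, limma).

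Of 13 genes of cardiolipin remodelling and turnover, 1 rose and 2 fell (median −0.021), against a background of 13.3% of genes higher and 12.9% lower. Abhd18, a mitochondrial hydrolase that deacylates cardiolipin, measured 16.9 ± 0.0989 CPM (SD, n = 2) in the knockout and 40.2 ± 3.00 CPM (SD, n = 3) in the control, a log2 fold change of −1.23 (adjusted p = 5.4e-05, limma). Plaat1, a phospholipase and acyltransferase, measured 15.6 and 5.69 CPM in the knockout, against 25.7, 28.7 and 29.1 CPM in the control (−1.35, adjusted p = 0.011, limma). Both knockout libraries were below the controls, but they differed from each other by more than the controls did. Hsd17b10, a mitochondrial dehydrogenase and subunit of mitochondrial RNase P, rose (0.36, adjusted p = 0.0053, limma). Hadha and Hadhb, the subunits of the trifunctional protein, did not pass the test (0.11 and 0.072). The log2 fold change of Plaat1 was −2.19 without knockout library 1 and −0.81 without knockout library 2, and the call of Hsd17b10 was lost without knockout library 1 (adjusted p = 0.070, limma). The call of Plaat1 was lost with the larger of raw and moderated variance (adjusted p = 0.082, limma).

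Of 12 genes for phosphatidylserine and phosphatidylethanolamine outside mitochondria, 3 rose and 1 fell (median 0.15), where 13.3% of all genes were called higher and 12.9% lower. Mboat2, a lysophospholipid acyltransferase, measured 5.66 and 5.90 CPM in the knockout, against 2.35, 1.32 and 0.825 CPM in the control, from 10 to 32 reads per control library (1.65, SE 0.29, adjusted p = 0.0036, limma). Ptdss1, which makes phosphatidylserine from phosphatidylcholine, measured 22.7 and 23.1 CPM in the knockout, against 16.4, 16.7 and 16.8 CPM in the control (0.45, adjusted p = 0.0069, limma). Selenoi, the ethanolamine phosphotransferase, also rose (0.34, adjusted p = 0.045, limma). Plscr1, a phospholipid scramblase, fell (−0.85, adjusted p = 0.00091, limma). The call of Selenoi was lost on the values per library with all 5 libraries (adjusted p = 0.050, limma, just above the threshold) and without any library other than control library 3 (0.12 to 0.28) and with no trend in the variance (0.071), and that of Ptdss1 without knockout library 1 or 2 (0.074 and 0.089). Mboat2 lost its call when the knockout library nearer the control was kept alone (0.066). Of 8 genes for phosphatidylcholine, 1 fell and 7 did not pass the test (12.9% of all genes called lower). It was the choline transporter Slc44a2 (−0.95, adjusted p = 0.0015, limma).

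Of 18 genes of lipid transfer and contact sites, 1 rose and 2 fell (median 0.061), beside 13.3% of all genes called higher and 12.9% lower. Vapa, a tether of the endoplasmic reticulum, rose (0.55, adjusted p = 0.0059, limma). Osbpl5, a lipid transfer protein at contacts with mitochondria, and Tspo, a protein of the outer mitochondrial membrane, fell (−0.56 and −0.43, adjusted p = 0.015 and 0.024, limma). The call of Osbpl5 was lost without any 1 library other than control library 3 (adjusted p = 0.057 to 0.16, limma). That of Tspo was lost without knockout library 2 (0.22), control library 1 (0.078) or control library 2 (0.058) and under library totals (0.078), with no trend in the variance (0.076) and with the larger of raw and moderated variance (0.066), and that of Vapa with either knockout library alone (0.052 and 0.082). Of 12 inner membrane proteases and scaffolds tied to cardiolipin or to the carriers, 5 rose and 2 fell (median 0.19), beside the same background. Phb2, a prohibitin that forms ring scaffolds in the inner membrane, measured 157 and 160 CPM in the knockout, against 110, 108 and 114 CPM in the control (0.52, adjusted p = 0.00061, limma). Chchd4, the import receptor of the intermembrane space that oxidises proteins such as Triap1, measured 63.3 and 63.7 CPM in the knockout, against 36.4, 37.9 and 44.8 CPM in the control (0.67, adjusted p = 0.0017, limma). Gfer, the oxidase that recycles Chchd4, and Stoml2, a scaffold that binds cardiolipin and prohibitins, rose as well (0.58 and 0.38, adjusted p = 0.0023 and 0.0036, limma). The remaining calls, named after their values were seen, were Afg3l2, Dnajc19 and Afg1l. The protease subunit Afg3l2 rose (0.34, adjusted p = 0.016, limma). Dnajc19, a partner of prohibitins, and Afg1l fell (−0.33 and −0.43, adjusted p = 0.0090 and 0.024, limma). Whether the calls of Afg3l2, Dnajc19 and Afg1l hold under the alternatives was not examined. The calls of Gfer and Stoml2 were lost when the knockout library nearer the control was kept alone (adjusted p = 0.053 and 0.062, limma), and that of Gfer without knockout library 1 (0.051).

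**Figure D3:**
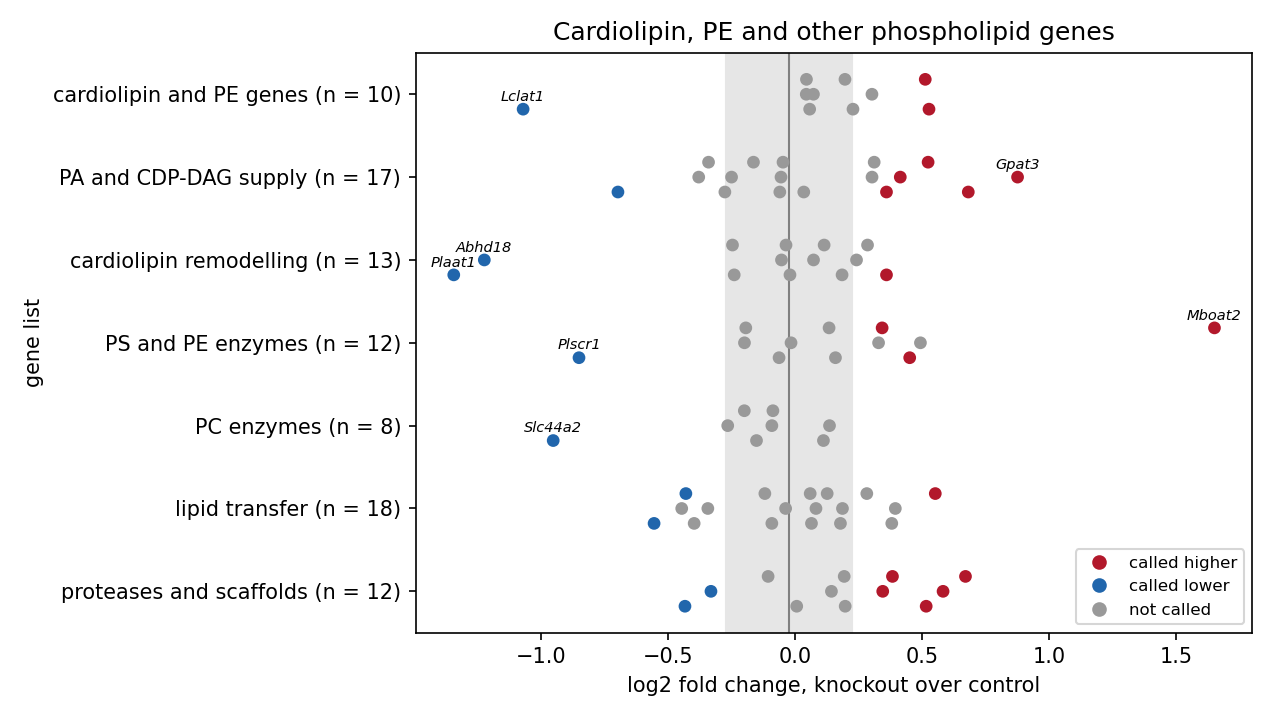
Log2 fold change (knockout over control, horizontal axis) of the 10 cardiolipin and phosphatidylethanolamine (PE) genes and of 6 lists of other phospholipid genes (PA, phosphatidic acid; CDP-DAG, CDP-diacylglycerol; PS, phosphatidylserine; PC, phosphatidylcholine), 1 point per gene, coloured by call and spread vertically only for legibility. The grey band spans the middle 50% of all genes (−0.27 to 0.22) around their median. Calls lie on both sides in most lists, with Mboat2 (1.65) at the right and Plaat1 (−1.35), Abhd18 (−1.23) and Lclat1 (−1.07) at the left.

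**Figure D4:**
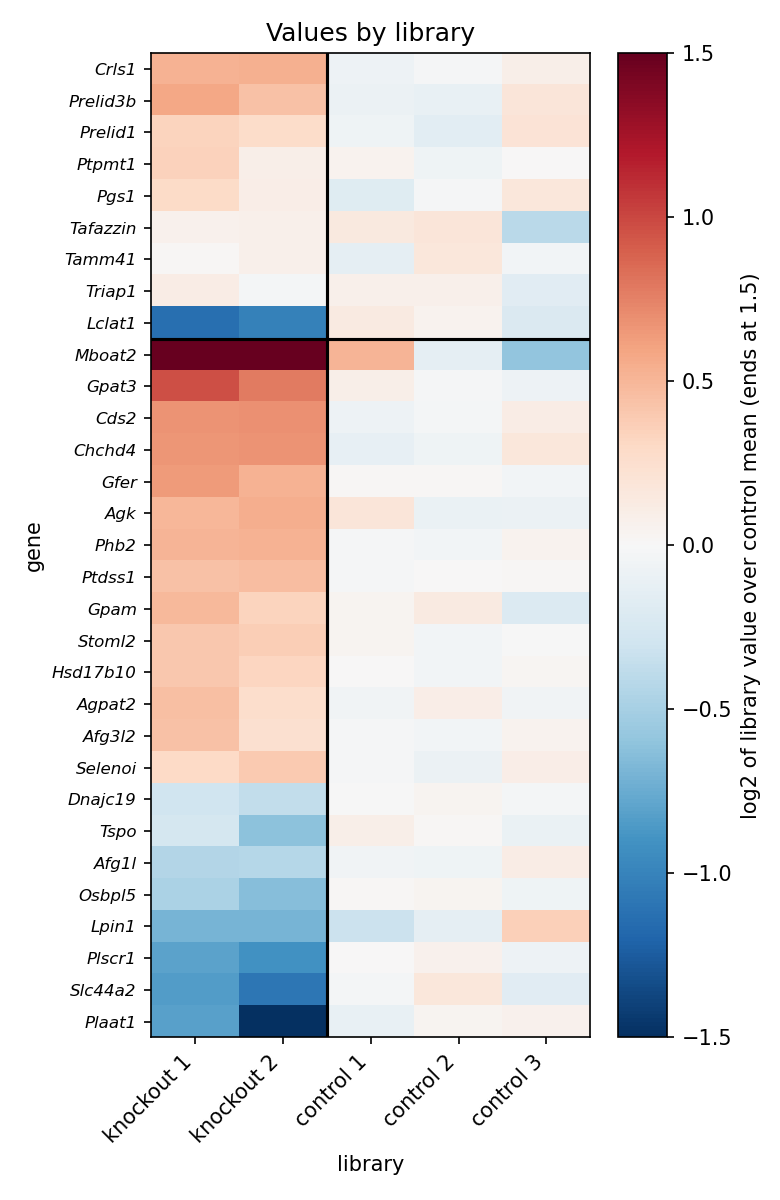
Log2 of each library's value over the control mean (colour, red above and blue below, values past the ends of the scale in the end colour) for the 9 genes with values per library (above the line) and the called genes of the other lists with values per library (below it). Columns are 2 knockout and 3 control libraries. Crls1 is red in both knockout libraries and Lclat1 blue in both, Plaat1 differs between the knockout libraries (−0.81 and −2.19), and control library 3 departs from the other controls for Tafazzin.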

How the data were processed

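Bulk RNA was measured in 2 knockout and 3 control heart samples, grouped by the genotype on the labels, with 3′ tag libraries carrying molecular identifiers. The submitters' processing notes name, without roles, the build GRCm39, edgeR 4.0.16, Subread 2.1.1 with featureCounts, STAR 2.7.11 and SAMtools 1.22.1. The deposited values are a signal in normalized CPM, as a mean and an SD per group made by the authors. Further deposited columns hold the authors' own comparison (fold change, average level, F, p and adjusted p) and were not used.

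Each gene was tested with limma 3.58.1 in R 4.3.3 on log2(group mean + 0.5 CPM), with variances taken from the SDs by the delta method, pooled over 3 degrees of freedom and moderated with a trend on the mean level. Tests were two-sided, with Benjamini-Hochberg adjustment over 15116 genes and calls at an adjusted p below 0.05. An exact test of 2 against 3 samples cannot go below p = 0.1 and was not used. Log2 fold changes are on the log2(CPM + 0.5) scale, which understates low genes.

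Values per library were worked back from mean and SD through the CPM worth of 1 read in each library, with whole reads tried first and steps of 0.5 reads next. The origin of such fractions of a read is not given in the sources used here. In genes of 5 to 100 CPM this gave 1 solution for 87.3% in the knockout and 85.8% in the control, against at most 1.66% with shifted steps. Both the fit and the working back were run on simulated counts, but the outcome is not given here and no result rests on it. The simulated counts were whole reads only, so working back in steps of 0.5 reads was not tested there.

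The 10 genes, the lists and the markers were chosen with earlier results of these data known. Named genes were the 10 genes, Immt, up to 4 called genes of each list with the smallest p, and the paralogs in the table. Hadha, Hadhb, the genes that overlap the loci of the 10 genes, the called markers and the remaining calls were named outside this rule. Alternatives were the pseudocount, a minimum of 5 CPM, other scalings and variance settings, and leaving out libraries, with fits on values per library added after the data were seen.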

Additional observations from a re-analysis of the deposited data

How the results depend on the processing

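Lclat1 and Crls1 were called under every alternative that gave a test, and over all alternatives their log2 fold changes were −1.17 to −0.94 and 0.48 to 0.65. Prelid3b was called except where 1 knockout library was kept, the one nearer the control (adjusted p = 0.14, limma) or library 2 (adjusted p = 0.10, limma). Scaling to library totals gave 3049 genes called higher, 4 of the 10 genes and 26 of the other phospholipid genes, against 2012, 2 and 15, by the upward shift of all differences that it makes. On values per library 1232 genes of 12273 were called higher, and among the same genes 1253 were called higher from means and SDs. With 1 library left out, genes called higher numbered 480 to 1694 and lower 615 to 2104, the 10 genes called higher 1 to 3, and the other phospholipid genes called higher 4 to 17 and lower 3 to 9. The lowest counts came from keeping 1 knockout library and the highest from leaving out control library 3. Signs turned for genes that were not called. The ranges of log2 fold changes with 1 library left out also count the extremes that the control SD allows for 1 control left out. They were −0.045 to 0.139 for Tamm41, −0.094 to 0.259 for Tafazzin, −0.039 to 0.128 for Triap1, −0.127 to 0.018 for Agpat3, and −0.566 to 0.039 for Agpat4. In the fits on values per library alone Tamm41 lay between −0.018 and 0.135, Tafazzin between −0.094 and 0.197, and Triap1 between −0.039 and 0.119. Agpat3 was at 0.071 under library totals. The causes were not tested. No paired analysis was possible because the table holds group means and the values worked back carry no replicate number.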
